A study of Homo sapiens with 8 samples.

Results

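The genes described here encode the ligands and receptors of 4 families of axon guidance cues: ephrins and Eph receptors, semaphorins and plexins, slits and ROBO receptors, and netrins and UNC5 receptors. They were matched by gene symbol, which gave 65 of the 61209 gene names in the deposited count table. The families were chosen with earlier results of these data known. The ligand side holds 35 genes: 5 class A and 3 class B ephrins, 7 secreted class 3 semaphorins, 13 membrane-bound semaphorins, 3 slits and 4 netrins. The receptor side holds 30 genes: 9 EPHA and 5 EPHB receptors, 9 plexins, 3 ROBO and 4 UNC5 receptors. Of the 65 genes, 63 had enough counts to be tested. The EPHA5 and EPHA8 receptors did not.

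RNA was sequenced from H1 cells, a human embryonic stem cell line with a tdTomato fluorescent reporter at the MSX1 gene, after differentiation through mesoderm. All groups shared the first steps. On day 0 the medium held 4 agents: 50 ng/mL Activin A, 40 ng/mL BMP4, 10 ng/mL FGF2, and 6 µM of CHIR99021, which inhibits GSK3. For the next 3 days it held 60 ng/mL BMP4 and 1 µM CHIR99021. From day 4, cells were pelleted at 25000 per well. The FGF8+10 groups then received both growth factors, 500 ng/mL of either one, and the Mock groups are labelled Mock with no medium composition given. On day 8, cells positive for the reporter were sorted by PDGFRA, the platelet-derived growth factor receptor alpha, into Msx1+Pdgfra+ and Msx1+Pdgfralow populations. The 4 groups are thus FGF8+10 Pdgfra+, FGF8+10 Pdgfralow, Mock Pdgfra+ and Mock Pdgfralow, with 2 libraries each. By its title, the series concerns how FGF8+10 matures cells it calls LPM-like into cells it calls LM-like. All libraries come from 1 reporter line, and the labels call the 2 libraries of a group biological replicates without saying whether they are separate differentiations. P-values therefore measure the spread between these libraries.

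Libraries held between 47698561 and 64390444 counts, of which the guidance genes took between 0.494% and 0.582%. PDGFRA averaged 714 ± 2.9 CPM (counts scaled to a common library size) in FGF8+10 Pdgfra+ and 286 ± 9.3 in FGF8+10 Pdgfralow libraries, then 454 ± 1.9 in Mock Pdgfra+ and 192 ± 3.6 in Mock Pdgfralow libraries (SD, n = 2 each). This is the protein of the gate, so its order checks the labels and is not a finding. MSX1, the reporter's gene, averaged 50.3 ± 1.7 CPM in FGF8+10 Pdgfra+ and 50.7 ± 3.0 CPM in FGF8+10 Pdgfralow libraries, against 21.7 ± 0.57 CPM in Mock Pdgfra+ and 26.2 ± 0.024 CPM in Mock Pdgfralow libraries. Of 12 markers of limb and lateral plate mesenchyme, 11 exceeded 1 CPM in each group, but their levels differed. The 12 summed to 6245 and 6192 CPM in FGF8+10 Pdgfra+ libraries, against 19160 and 18630 CPM in Mock Pdgfra+ libraries. In Pdgfralow libraries the sums were 4094 and 4018 CPM with FGF8+10 and 17340 and 16570 CPM with Mock. COL1A1, the highest marker in each group, averaged 4363 CPM (Pdgfra+) and 2949 CPM (Pdgfralow) with FGF8+10, against 17410 and 15840 CPM with Mock. The list includes PDGFRA and MSX1, on which the cells were sorted and which averaged higher with FGF8+10. The sort came after the treatment, so the gates may hold different cells under FGF8+10 and Mock. In bulk libraries, fewer cells of a type and less RNA per cell cannot be told apart.

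Guidance cues act in pairs. Ephrins are tethered to the surface of one cell and bind Eph receptor tyrosine kinases on the next, with signals passing in both directions and cells sorting at the border. Class A ephrins carry a lipid anchor and class B ephrins span the membrane. Secreted class 3 semaphorins mostly signal through a neuropilin joined to a plexin, whereas most membrane semaphorins bind plexins directly. Slits repel cells through ROBO receptors. Netrin-1 attracts through DCC and repels when UNC5 receptors take part. In the vertebrate limb bud, these families are known for sorting mesenchymal cells and for steering the nerves and vessels that grow in.

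Levels between genes are compared in TPM, a transcript share that divides counts by the exon length of each gene. Among ligands, the order of the highest levels differed between groups. EFNB1 averaged 209.6 ± 4.0 TPM in FGF8+10 Pdgfra+, 205 ± 3.1 in FGF8+10 Pdgfralow, 194 ± 2.1 in Mock Pdgfra+ and 223 ± 1.9 in Mock Pdgfralow libraries (SD, n = 2 each). SEMA6D, a transmembrane ligand of PLXNA1, averaged 248 ± 2.8 TPM in FGF8+10 Pdgfra+, 151 ± 3.5 in FGF8+10 Pdgfralow, 304 ± 0.86 in Mock Pdgfra+ and 224 ± 5.3 in Mock Pdgfralow libraries. EFNB3, a transmembrane ephrin like EFNB1, averaged 192 ± 3.6 TPM in FGF8+10 Pdgfra+, 113 ± 5.2 in FGF8+10 Pdgfralow, 286 ± 3.7 in Mock Pdgfra+ and 269 ± 0.64 in Mock Pdgfralow libraries. SLIT2, a secreted ligand of ROBO receptors, averaged 121 ± 2.3 TPM in FGF8+10 Pdgfra+, 131 ± 0.98 in FGF8+10 Pdgfralow, 244 ± 2.1 in Mock Pdgfra+ and 256 ± 2.3 in Mock Pdgfralow libraries. SEMA6D led the ligands in both Pdgfra+ groups, EFNB1 in FGF8+10 Pdgfralow and EFNB3 in Mock Pdgfralow libraries. SLIT2 stood above EFNB1 in both Mock groups and above EFNB3 in FGF8+10 Pdgfralow libraries.

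Among receptors, the netrin receptor UNC5B led under FGF8+10, with 351 ± 6.2 TPM in Pdgfra+ and 299.6 ± 2.4 TPM in Pdgfralow libraries. EPHA7, an ephrin-A receptor, led under Mock, with 351 ± 0.76 TPM in Pdgfra+ and 260.4 ± 2.1 TPM in Pdgfralow libraries. At the other end, EPHA8 had 0 and 2 counts in the FGF8+10 Pdgfra+ libraries and 0 and 4 counts in the Mock Pdgfra+ libraries, and none in either Pdgfralow group. A count of 0 in both libraries allows up to 6 counts over the group, that is 3 read pairs, which is 0.0537 CPM in FGF8+10 Pdgfralow and 0.0495 CPM in Mock Pdgfralow cells. EPHA5 stood between 0.0294 and 0.171 CPM in all 8 libraries. Such limits cover counting error only.

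**Figure D1:**
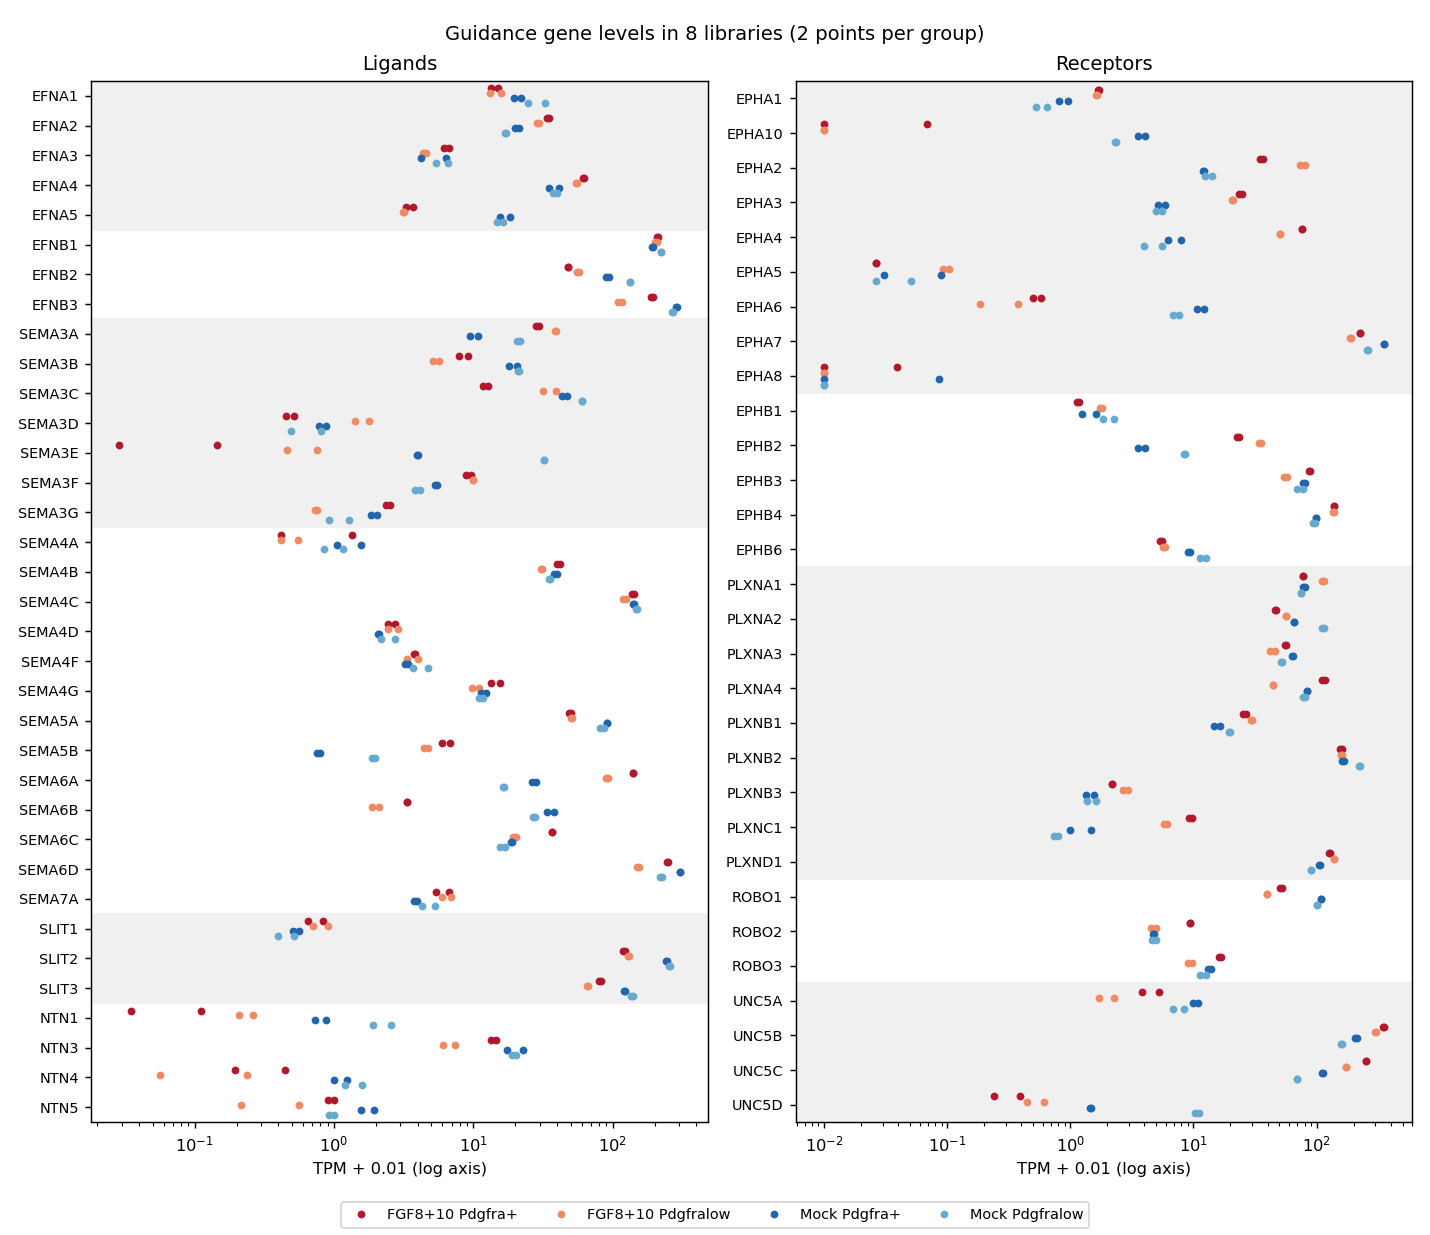
Level of each of the 65 guidance genes in TPM plus 0.01 on a log axis, with ligands on the left and receptors on the right and 1 point per library, 2 per group. SEMA3E, EPHA6, EPHA10 and SEMA6B are among the genes with wide gaps between FGF8+10 and Mock points, and shading separates the families.

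Summed over families, slit transcripts reached 203 ± 4.0 TPM in FGF8+10 Pdgfra+ libraries, against 367 ± 3.6 TPM in Mock Pdgfra+ libraries, and 198 ± 1.6 TPM in FGF8+10 Pdgfralow libraries, against 394 ± 4.6 TPM in Mock Pdgfralow libraries (SD, n = 2 each). ROBO transcripts summed to 77.6 ± 1.1 TPM in FGF8+10 Pdgfra+ libraries, against 127 ± 0.77 TPM in Mock Pdgfra+ libraries, and to 53.4 ± 0.74 TPM in FGF8+10 Pdgfralow libraries, against 117 ± 0.10 TPM in Mock Pdgfralow libraries. UNC5 transcripts ran the other way, at 609 ± 8.5 TPM in FGF8+10 Pdgfra+ libraries, against 332 ± 5.3 TPM in Mock Pdgfra+ libraries, and 475 ± 2.7 TPM in FGF8+10 Pdgfralow libraries, against 248 ± 3.0 TPM in Mock Pdgfralow libraries. In none of these 3 families did the libraries of the 2 treatments overlap. This was not particular to them, since the sums of the other families did not overlap either, with 1 exception. Class A ephrins overlapped in the Pdgfralow gate, at 108.0 and 105.1 TPM with FGF8+10 and 104.5 and 107.4 TPM with Mock. With 2 libraries a group, a lack of overlap here and in what follows is a description and not a test. Its share over all genes was not counted. TPM are scaled by the sum of length-divided counts in a library, without trimmed-mean (TMM) scaling. For counts scaled by library totals, the median log2 change with FGF8+10 lay 0.171 (Pdgfra+) and 0.161 (Pdgfralow) above that after TMM scaling. The shift for TPM was not computed, and family differences of about that size have no fixed direction.

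**Figure D2:**
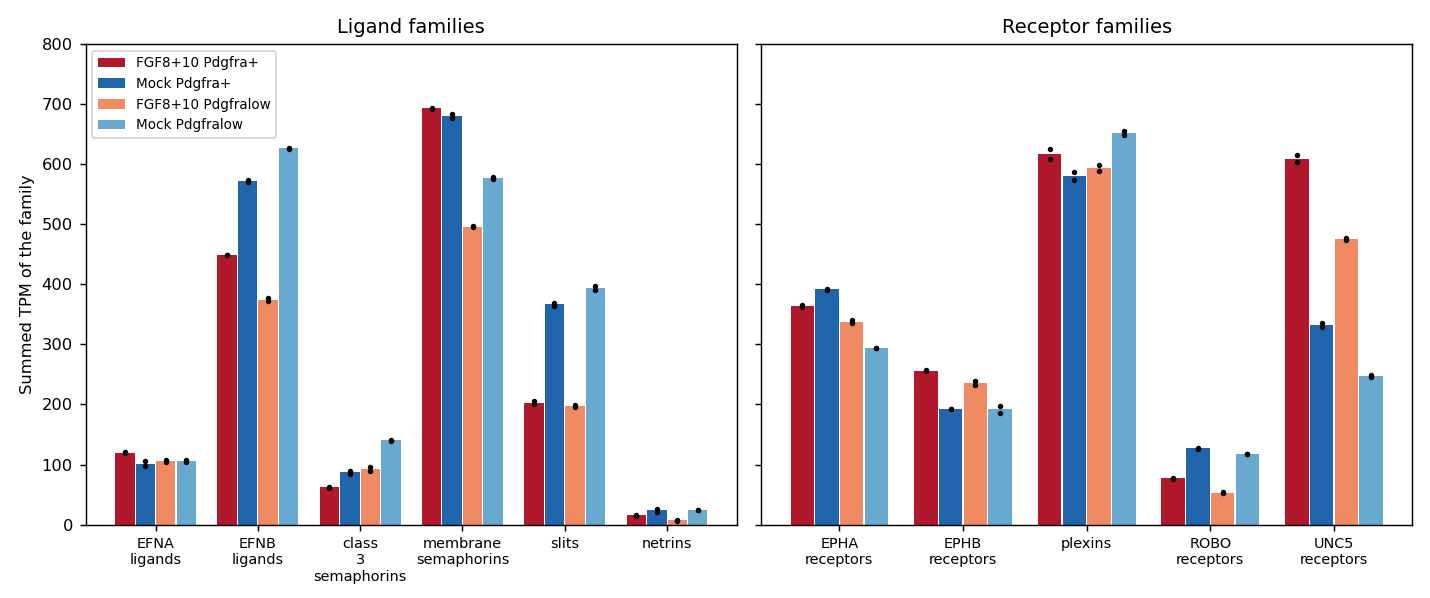
Summed TPM of each guidance family, with bars for group means and points for the 2 libraries of each group. Slits and ROBO receptors were lower and UNC5 receptors higher in FGF8+10 than in Mock libraries of both populations.

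FGF8+10 and Mock cells of the same gate were compared with edgeR's quasi-likelihood test on counts, with Benjamini-Hochberg adjustment over the 22554 genes tested and a threshold of 0.05. Changes are log2 values of FGF8+10 over Mock, each with its SE, and where a pair of changes is given it is for the Pdgfra+ and the Pdgfralow gate in that order. In Pdgfra+ cells 21 guidance genes rose, 29 fell and 13 did not pass, with a median of -0.06. Over all genes tested, 50.9% passed, 25.8% higher and 25.1% lower, with a median of -0.01. In Pdgfralow cells 20 guidance genes rose, 35 fell and 8 did not pass, with a median of -0.41, against 55.7% of all genes passing, 27.9% higher and 27.7% lower, and a median of -0.02. At 2-fold or more, 9 guidance genes were higher and 16 lower in Pdgfra+ cells, where 17.1% of all genes were called, 7.29% higher and 9.83% lower. In Pdgfralow cells 11 were higher and 21 lower, where 21.3% of all genes were called, 9.45% higher and 11.8% lower. When libraries were scaled by their totals alone, 28 guidance genes were higher and 25 lower in Pdgfra+ cells, and 23 higher and 33 lower in Pdgfralow cells.

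Of 35 ligands, 8 rose and 18 fell in Pdgfra+ cells, and 7 rose and 22 fell in Pdgfralow cells. Of the 28 receptors tested, 13 rose and 11 fell in Pdgfra+ cells, and 13 rose and 13 fell in Pdgfralow cells. The ligand medians were -0.43 and -0.69, and those of the receptors 0.14 and -0.23, in Pdgfra+ and Pdgfralow cells. With library totals alone, 12 ligands were higher and 16 lower in Pdgfra+ cells, a smaller excess of lower ligands. The difference between ligands and receptors was not itself tested.

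Of the 63 guidance genes tested, 17 rose in both populations, 27 fell in both, 3 moved in opposite directions, 11 passed in 1 population and 5 in neither. Over the 22554 genes tested, 4516 rose in both, 4308 fell in both, 462 moved in opposite directions, 5453 passed in 1 population and 7815 in neither. At 2-fold or more in both, 8 were higher and 14 lower, where all genes gave 1232 higher and 1681 lower of 22554. The 8 higher genes were 6 receptors (EPHA2, EPHA3, EPHA4, EPHB2, PLXNC1 and UNC5C) and the 2 semaphorins SEMA5B and SEMA6A. The 14 lower genes were 9 ligands and 5 receptors, described by family in what follows.

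**Figure D3:**
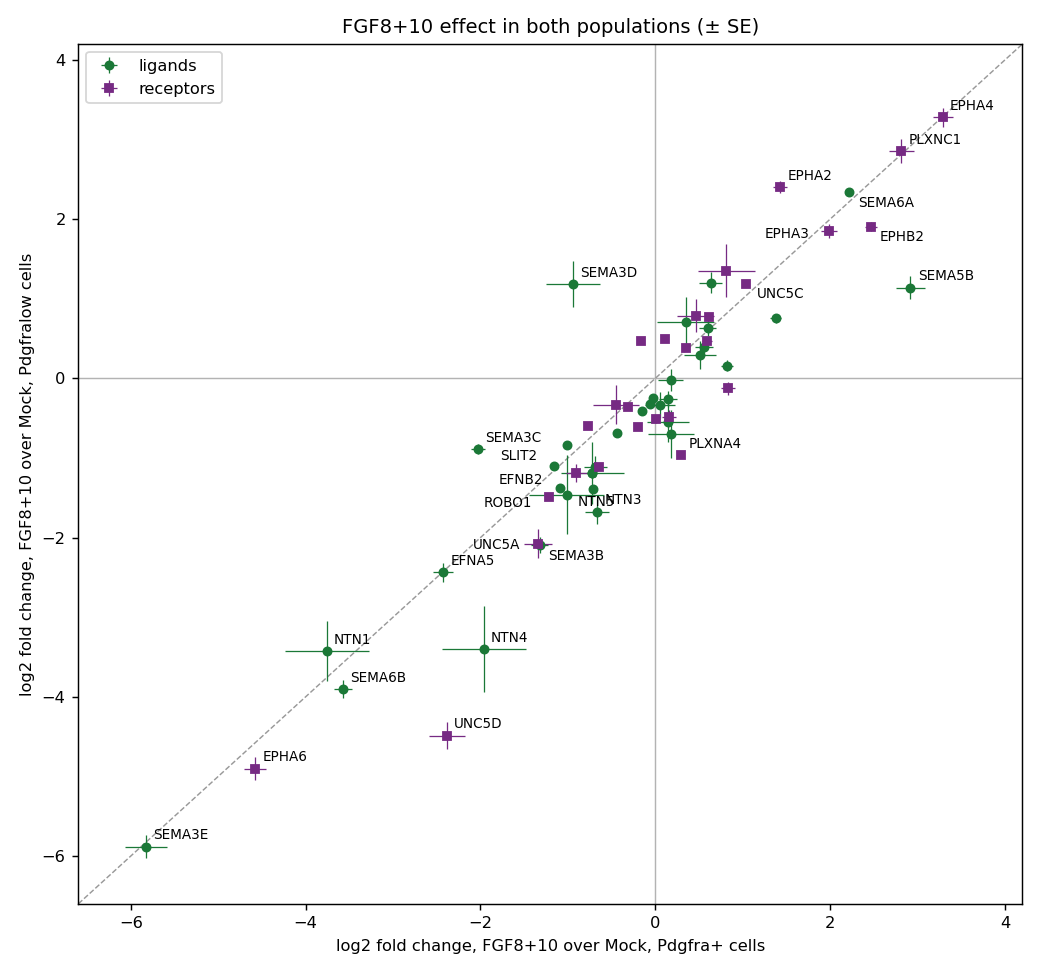
Log2 fold change of FGF8+10 over Mock in Pdgfra+ cells (x axis) and Pdgfralow cells (y axis) for the 62 guidance genes that lie within the axes, with SE bars. Points near the dashed line of equality changed alike in both populations, SEMA3D, SEMA3C, SEMA5B and UNC5D lie off it, and EPHA10, with 6 counts and no count in the FGF8+10 groups, lies beyond the axes.

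Of 7 EPHA receptors tested, 4 rose and 3 fell in each population. Of 5 EPHB receptors, 2 rose and 1 fell in Pdgfra+ cells, and 2 rose and 2 fell in Pdgfralow cells. The largest gain among the tested guidance genes, in both populations, was that of EPHA4. This receptor, which binds ephrins of both classes, had 105 and 105 CPM in FGF8+10 Pdgfra+ libraries, against 12.1 and 9.48 CPM in Mock Pdgfra+ libraries. In the Pdgfralow gate it had 70.4 and 71.2 CPM with FGF8+10 and 8.49 and 6.07 CPM with Mock. Each FGF8+10 library stood above each Mock library, with log2 changes of 3.29 ± 0.12 in Pdgfra+ (adjusted p = 1.64e-09, edgeR) and 3.28 ± 0.12 in Pdgfralow cells (adjusted p = 1.82e-09, edgeR). EPHB2, a receptor of class B ephrins, had 51.8 and 54.1 CPM in FGF8+10 Pdgfra+ libraries, against 8.94 and 10.2 CPM in Mock Pdgfra+ libraries. It had 82.0 and 79.9 CPM in FGF8+10 Pdgfralow libraries, against 21.7 and 21.5 CPM in Mock Pdgfralow libraries. The groups did not overlap, and the changes were 2.47 ± 0.07 (adjusted p = 1.43e-32, edgeR) and 1.91 ± 0.06 (adjusted p = 8.05e-31, edgeR).

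EPHA2, a receptor of class A ephrins found on many epithelial and mesenchymal cells, stood highest in FGF8+10 Pdgfralow cells. Its libraries held 26.2 and 28.2 CPM with FGF8+10 and 10.2 and 10.1 CPM with Mock in Pdgfra+ cells. In Pdgfralow cells they held 62.2 and 56.5 CPM with FGF8+10 and 11.8 and 10.5 CPM with Mock. The rise was 1.43 ± 0.08 in Pdgfra+ and 2.41 ± 0.07 in Pdgfralow cells, with no overlap between treatments. The 7 epithelial markers summed to 1302 and 1293 CPM in FGF8+10 Pdgfralow libraries, against 1136 and 1131 CPM in Mock Pdgfralow libraries, and to 472 and 476 CPM in FGF8+10 Pdgfra+ libraries, against 667 and 666 CPM in Mock Pdgfra+ libraries. The markers did not move together in the Pdgfralow gate, since KRT19 averaged 328 CPM with FGF8+10 and 528 CPM with Mock. KRT8 was the highest marker in FGF8+10 Pdgfralow libraries, at 737 CPM. The part of these markers in the EPHA2 values was not tested. EPHA3, also an ephrin-A receptor, rose by 1.99 ± 0.09 and 1.85 ± 0.09, at 28.3 and 30.0 CPM in FGF8+10 Pdgfra+ libraries, against 7.86 and 6.85 CPM in Mock Pdgfra+ libraries. EPHA3 had 25.1 and 25.6 CPM with FGF8+10 and 7.42 and 6.65 CPM with Mock in the Pdgfralow gate. Neither gate showed overlap. Among smaller gains, EPHB4, the receptor through which EFNB2 acts in vessels, rose by 0.35 ± 0.03 and 0.39 ± 0.03. EPHB4 measured 164 and 164 CPM in FGF8+10 Pdgfra+ libraries, against 128 and 130.1 CPM in Mock Pdgfra+ libraries, and 165 and 165 CPM in FGF8+10 Pdgfralow libraries, against 128 and 124 CPM in Mock Pdgfralow libraries. EPHA1 rose by 0.81 ± 0.32 and 1.35 ± 0.33 at under 2 CPM in all libraries, and its call in Pdgfra+ cells was lost with DESeq2 (adjusted p = 0.0545), without the filter on low counts (adjusted p = 0.0557, edgeR) and when any 1 Pdgfra+ library was left out (adjusted p between 0.0628 and 0.162, edgeR).

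EPHA6 and EPHA10 went the other way. EPHA6, an ephrin-A receptor studied mostly in the nervous system, had 1.63 and 1.93 CPM in FGF8+10 Pdgfra+ libraries, against 40.0 and 45.2 CPM in Mock Pdgfra+ libraries. In Pdgfralow cells it had 1.24 and 0.597 CPM with FGF8+10 and 25.6 and 28.7 CPM with Mock. Its changes of -4.58 ± 0.13 (adjusted p = 1.12e-28, edgeR) and -4.90 ± 0.15 (adjusted p = 1.88e-27, edgeR) were far larger than the gap between libraries of a group. EPHA10, whose kinase domain lacks activity, had 0 and 6 counts in FGF8+10 Pdgfra+ libraries, against 263 and 322 counts in Mock Pdgfra+ libraries, a ratio per depth of 142 (exact 95% interval on read pairs, Mock over FGF8+10, 48.1 to 693). In FGF8+10 Pdgfralow cells EPHA10 had no count in either library, against 232 and 236 counts in Mock Pdgfralow libraries, at least 71.8-fold lower when 6 counts over the group are taken as the limit. EPHA7, the most abundant Eph receptor per length in each group, fell by less, with 686 and 686 CPM in FGF8+10 Pdgfra+ libraries, against 1174 and 1169 CPM in Mock Pdgfra+ libraries, and changes of -0.77 ± 0.02 and -0.60 ± 0.02. EPHA7 held 571 and 583 CPM with FGF8+10 and 867 and 879.6 CPM with Mock in the Pdgfralow gate. EPHB6, which also lacks kinase activity, fell with -0.91 ± 0.12 and -1.19 ± 0.12. EPHB1 did not pass in either population, and EPHB3 fell in Pdgfralow cells (-0.51 ± 0.05) and did not pass in Pdgfra+ cells (0.01 ± 0.05), where library totals alone gave 0.18 (adjusted p = 0.000663, edgeR). EPHB3, a receptor of class B ephrins, stood at 72.0 and 74.5 CPM in FGF8+10 Pdgfra+ libraries, against 73.6 and 71.6 CPM in Mock Pdgfra+ libraries, and 48.8 and 46.2 CPM in FGF8+10 Pdgfralow libraries, against 71.0 and 64.1 CPM in Mock Pdgfralow libraries.

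The sequences before the start sites of 4 Eph and ephrin genes are shown, so that genes of the same families that moved in opposite directions can be compared. For EPHB2 and EPHA2, which rose, and EFNB2 and EPHA6, which fell, the 250 bases before the RefSeq start (GRCh38.p14) read as given here, 5′ to 3′ on the gene's strand, with each CG dinucleotide in capitals.
EPHB2, chr1:22710588-22710837, plus strand: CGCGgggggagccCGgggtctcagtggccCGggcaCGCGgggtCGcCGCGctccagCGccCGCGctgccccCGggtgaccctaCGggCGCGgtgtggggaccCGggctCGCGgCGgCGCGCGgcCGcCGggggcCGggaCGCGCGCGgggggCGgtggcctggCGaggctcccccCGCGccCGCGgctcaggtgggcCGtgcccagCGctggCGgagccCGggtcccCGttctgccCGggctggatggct
EPHA2, chr1:16156070-16156319, minus strand: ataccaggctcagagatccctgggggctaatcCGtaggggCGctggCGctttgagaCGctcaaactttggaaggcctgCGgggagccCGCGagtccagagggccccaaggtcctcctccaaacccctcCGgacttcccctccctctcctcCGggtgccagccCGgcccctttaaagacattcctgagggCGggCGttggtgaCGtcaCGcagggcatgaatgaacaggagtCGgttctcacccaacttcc
EFNB2, chr13:106535663-106535912, minus strand: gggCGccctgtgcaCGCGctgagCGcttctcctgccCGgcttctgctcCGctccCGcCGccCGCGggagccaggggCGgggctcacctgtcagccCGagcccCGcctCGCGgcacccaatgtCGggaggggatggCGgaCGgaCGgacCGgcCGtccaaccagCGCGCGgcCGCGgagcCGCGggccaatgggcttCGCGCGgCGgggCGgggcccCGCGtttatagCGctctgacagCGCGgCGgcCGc
EPHA6, chr3:96814344-96814593, plus strand: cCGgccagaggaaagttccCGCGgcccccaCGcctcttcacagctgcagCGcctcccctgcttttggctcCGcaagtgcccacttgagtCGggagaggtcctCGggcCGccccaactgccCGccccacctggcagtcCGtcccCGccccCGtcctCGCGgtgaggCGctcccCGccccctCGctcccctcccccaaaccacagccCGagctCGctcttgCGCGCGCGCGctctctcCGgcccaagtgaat

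These stretches held 42 CG dinucleotides in EPHB2, 15 in EPHA2, 40 in EFNB2 and 26 in EPHA6, where the median of 27305 RefSeq promoter windows was 11. Genes that rose thus had both the highest and the lowest of the 4 values. Of the 65 guidance genes, 56 matched a RefSeq window, with a median of 17 CG dinucleotides. Over the full 300 bases of each window (250 before to 50 after the start), the letters CCGGAAG, a core bound by ETS factors, were found on either strand in 2 of the 56 (SEMA4B and PLXNB1, 3.57%), against 10.7% of all windows. The letters TGANTCA, an AP-1 core, were found in 1 of the 56 (PLXNC1, 1.79%), against 7.76% of all windows. The PLXNC1 and SEMA4B windows each lie at a start inside the gene rather than at its first exon. A match of letters is a description and not a bound site.

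Of 8 ephrins, 2 rose and 4 fell in Pdgfra+ cells, and 2 rose and 5 fell in Pdgfralow cells, most steeply EFNA5. This class A ephrin had 3.85 and 3.49 CPM in FGF8+10 Pdgfra+ libraries, against 21.5 and 18.0 CPM in Mock Pdgfra+ libraries. In Pdgfralow libraries it had 3.32 and 3.41 CPM with FGF8+10 and 19.1 and 17.4 CPM with Mock. The treatments did not overlap, and the change was -2.43 ± 0.12 in Pdgfra+ (adjusted p = 1.21e-22, edgeR) and -2.44 ± 0.12 in Pdgfralow cells (adjusted p = 2.13e-22, edgeR). EFNB2, the class B ephrin known from arterial endothelium, had 43.8 and 43.9 CPM in FGF8+10 Pdgfra+ libraries, against 90.9 and 95.3 CPM in Mock Pdgfra+ libraries. It had 53.1 and 52.2 CPM in FGF8+10 Pdgfralow libraries, against 136 and 137 CPM in Mock Pdgfralow libraries. Its changes were -1.09 ± 0.04 and -1.37 ± 0.04, and 36.4% of its exon bases are shared with a gene that has no symbol, and reads over both were not counted. EFNB3 fell with -0.72 ± 0.03 and -1.38 ± 0.03, whereas EFNB1 did not pass in Pdgfra+ cells (-0.03 ± 0.03, adjusted p = 0.432, edgeR) and fell slightly in Pdgfralow cells (-0.25 ± 0.03). With library totals alone, EFNB1 was higher in Pdgfra+ cells (0.14). EFNB3 had 115 and 112 CPM in FGF8+10 Pdgfra+ libraries, against 188 and 185 CPM in Mock Pdgfra+ libraries, and 69.7 and 65.6 CPM in FGF8+10 Pdgfralow libraries, against 176 and 177 CPM in Mock Pdgfralow libraries. EFNB1 had 125 and 129 CPM in FGF8+10 Pdgfra+ libraries, against 129 and 131 CPM in Mock Pdgfra+ libraries, and 125 and 128 CPM in FGF8+10 Pdgfralow libraries, against 151 and 149 CPM in Mock Pdgfralow libraries. The treatments did not overlap for EFNB3 in either gate or for EFNB1 in Pdgfralow cells.

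EFNA4, EFNA3 and EFNA1 are neighbours on chromosome 1 (GRCh38) and did not move together. EFNA4 (chr1:155063737-155069553) rose, by 0.56 ± 0.10 and 0.39 ± 0.10. EFNA3 (chr1:155078837-155087538) did not pass in either population (0.15 and -0.55), and shares 43.9% of its exon bases with another gene. EFNA1 (chr1:155127876-155134899) fell, with -0.69 ± 0.13 and -1.11 ± 0.13, at 5.32 and 6.04 CPM in FGF8+10 Pdgfra+ libraries, against 9.72 and 8.55 CPM in Mock Pdgfra+ libraries. It had 6.41 and 5.32 CPM with FGF8+10 and 10.9 and 14.4 CPM with Mock in the Pdgfralow gate. EFNA2, on chromosome 19, rose by 0.60 ± 0.10 and 0.64 ± 0.10. EFNA2 had 15.1 and 15.6 CPM in FGF8+10 Pdgfra+ libraries, against 9.86 and 10.4 CPM in Mock Pdgfra+ libraries, and 13.4 and 12.9 CPM in FGF8+10 Pdgfralow libraries, against 8.39 and 8.50 CPM in Mock Pdgfralow libraries. EFNA4 had 14.3 and 14.1 CPM in FGF8+10 Pdgfra+ libraries, against 10.5 and 8.86 CPM in Mock Pdgfra+ libraries, and 12.8 and 13.1 CPM in FGF8+10 Pdgfralow libraries, against 10.2 and 9.58 CPM in Mock Pdgfralow libraries. The treatments overlapped for none of EFNA1, EFNA2 and EFNA4 in either gate. EFNA4 was the most abundant class A ephrin per length in each group, at 61.4 ± 0.73 TPM in FGF8+10 Pdgfra+ and 37.9 ± 4.4 TPM in Mock Pdgfra+ libraries.

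Among semaphorins the widest change was the loss of SEMA3E, a secreted ligand that binds PLXND1 without a neuropilin. SEMA3E had 0.207 and 0.0294 CPM in FGF8+10 Pdgfra+ libraries, against 6.86 and 6.76 CPM in Mock Pdgfra+ libraries. In Pdgfralow cells it had 1.17 and 0.716 CPM with FGF8+10 and 55.1 and 55.1 CPM with Mock. The change was -5.82 ± 0.24 in Pdgfra+ (adjusted p = 1.01e-24, edgeR) and -5.88 ± 0.14 in Pdgfralow cells (adjusted p = 6.2e-34, edgeR). Mock Pdgfralow libraries stood apart, since no library of the other groups was above 6.86 CPM. In the same libraries 12 neural markers summed to 135.8 and 135.6 CPM, 129 CPM of it from STMN2, against 5.48 to 21.8 CPM in the libraries of the other 3 groups. SOX1 and NEUROD1 were at 0 in Mock Pdgfralow libraries, and NEUROD1, NEUROG2, ELAVL3 and ELAVL4 were at 0 in all others. The part of neural cells in the SEMA3E difference was not tested.

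The remaining class 3 semaphorins divided. SEMA3A, which repels axons through NRP1 and class A plexins, had 48.1 and 50.9 CPM in FGF8+10 Pdgfra+ libraries, against 17.8 and 20.2 CPM in Mock Pdgfra+ libraries. It had 66.5 and 68.1 CPM in FGF8+10 Pdgfralow libraries, against 41.0 and 39.0 CPM in Mock Pdgfralow libraries. SEMA3A was higher with FGF8+10 in both gates, by 1.38 ± 0.06 and 0.75 ± 0.05, as was SEMA3F, an NRP2 ligand, by 0.63 ± 0.13 and 1.20 ± 0.14. SEMA3C, which acts in cardiac outflow development, had 13.2 and 14.2 CPM in FGF8+10 Pdgfra+ libraries, against 58.2 and 53.8 CPM in Mock Pdgfra+ libraries. In the Pdgfralow gate SEMA3C had 35.9 and 44.8 CPM with FGF8+10 and 74.5 and 75.3 CPM with Mock. The treatments did not overlap in either gate, with changes of -2.03 ± 0.08 and -0.89 ± 0.07. SEMA3B, another neuropilin ligand, had 9.67 and 8.41 CPM in FGF8+10 Pdgfra+ libraries, against 24.2 and 21.0 CPM in Mock Pdgfra+ libraries, and 6.04 and 5.54 CPM in FGF8+10 Pdgfralow libraries, against 24.4 and 25.1 CPM in Mock Pdgfralow libraries. It fell with -1.32 ± 0.09 and -2.10 ± 0.10, again without overlap. SEMA3G fell in Pdgfralow cells (-0.70 ± 0.30, adjusted p = 0.0453, edgeR) and did not pass in Pdgfra+ cells (0.18 ± 0.26). The SEMA3G call was lost under most alternatives, with DESeq2 among them (adjusted p = 0.0787), and its change was -0.45 without Mock Pdgfralow replicate 1 (adjusted p = 0.334, edgeR).

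Of 13 membrane semaphorins, 4 rose and 4 fell in Pdgfra+ cells, and 2 rose and 7 fell in Pdgfralow cells. SEMA6A, a transmembrane ligand of PLXNA2 and PLXNA4, had 281 and 280.2 CPM in FGF8+10 Pdgfra+ libraries, against 62.3 and 58.3 CPM in Mock Pdgfra+ libraries. With FGF8+10 the Pdgfralow libraries had 188 and 183 CPM, against 36.9 and 36.3 CPM with Mock. Its gains were 2.22 ± 0.03 (adjusted p = 3.75e-42, edgeR) and 2.34 ± 0.04 (adjusted p = 1.78e-42, edgeR), with no overlap between treatments. SEMA6B, of the same class, moved in the opposite direction, with 2.89 and 2.89 CPM in FGF8+10 Pdgfra+ libraries, against 36.5 and 32.2 CPM in Mock Pdgfra+ libraries. Pdgfralow libraries had 1.64 and 1.84 CPM with FGF8+10 and 26.5 and 25.8 CPM with Mock. The log2 changes were -3.57 ± 0.10 and -3.90 ± 0.11, and the treatments did not overlap.

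SEMA5B, a transmembrane semaphorin with thrombospondin repeats, had 10.7 and 9.41 CPM in FGF8+10 Pdgfra+ libraries, against 1.37 and 1.29 CPM in Mock Pdgfra+ libraries, a change of 2.92 ± 0.17. In Pdgfralow cells it had 7.05 and 7.52 CPM with FGF8+10 and 3.38 and 3.23 CPM with Mock, a change of 1.14 ± 0.15. Its relative SEMA5A fell, with -1.01 ± 0.03 and -0.84 ± 0.03. The abundant SEMA6D and SEMA4C, a PLXNB2 ligand, fell with -0.43 ± 0.02 and -0.69 ± 0.02, and with -0.16 ± 0.03 and -0.41 ± 0.03. SEMA4C held 163 and 159 CPM in FGF8+10 Pdgfra+ libraries, against 181 and 178 CPM in Mock Pdgfra+ libraries, and 144 and 140.3 CPM in FGF8+10 Pdgfralow libraries, against 188 and 190.0 CPM in Mock Pdgfralow libraries. SEMA6D had 384 and 392 CPM in FGF8+10 Pdgfra+ libraries, against 524 and 526 CPM in Mock Pdgfra+ libraries, and 236 and 245 CPM in FGF8+10 Pdgfralow libraries, against 381 and 395 CPM in Mock Pdgfralow libraries. For SEMA4C the Pdgfra+ log2 value turned to 0.02 with library totals alone. SEMA4A, SEMA4B and SEMA4G, transmembrane semaphorins of class 4, fell in Pdgfralow cells (-1.19 ± 0.39, -0.32 ± 0.05 and -0.26 ± 0.10) and did not pass in Pdgfra+ cells. The SEMA4A call was lost without FGF8+10 Pdgfralow replicate 1 (adjusted p = 0.0998, edgeR) or Mock Pdgfralow replicate 2 (adjusted p = 0.102, edgeR), while in Pdgfra+ cells SEMA4A was called lower without FGF8+10 Pdgfra+ replicate 2 (-1.81, adjusted p = 0.000542, edgeR). The SEMA4G call was lost with DESeq2 (adjusted p = 0.0674), with library totals alone (-0.10, adjusted p = 0.444, edgeR), and without FGF8+10 Pdgfralow replicate 1 (adjusted p = 0.242, edgeR) or Mock Pdgfralow replicate 2 (adjusted p = 0.195, edgeR). In Pdgfra+ cells SEMA4G was called higher with library totals alone (0.32, adjusted p = 0.00641, edgeR). SEMA4G shares 28.1% of its exon bases with other genes, MRPL43 among them. SEMA4D and SEMA4F passed in neither population. SEMA6C rose in Pdgfra+ cells (0.83 ± 0.07) and did not pass in Pdgfralow cells (0.16 ± 0.07), where it was called with relative-log (RLE) scaling (adjusted p = 0.0447, edgeR), with library totals alone (0.32, adjusted p = 0.000139, edgeR) and without Mock Pdgfralow replicate 1 (adjusted p = 0.0311, edgeR). The PLXNC1 ligand SEMA7A rose in Pdgfra+ cells (0.51 ± 0.18), a call lost without FGF8+10 Pdgfra+ replicate 1 (adjusted p = 0.188, edgeR) or Mock Pdgfra+ replicate 1 (adjusted p = 0.0785, edgeR). SEMA7A did not pass in Pdgfralow cells (0.29 ± 0.17) but did with library totals alone (0.45, adjusted p = 0.0246, edgeR), and the difference between its effects did not pass (0.22 ± 0.25).

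Of 9 plexins, 4 rose and 4 fell in Pdgfra+ cells, and 5 rose and 4 fell in Pdgfralow cells. PLXNC1, the receptor of SEMA7A, had 17.9 and 17.0 CPM in FGF8+10 Pdgfra+ libraries, against 2.98 and 2.01 CPM in Mock Pdgfra+ libraries. It had 10.8 and 11.5 CPM in FGF8+10 Pdgfralow libraries, against 1.59 and 1.49 CPM in Mock Pdgfralow libraries. No library of the treatments overlapped, and the gains were 2.81 ± 0.14 (adjusted p = 5.44e-22, edgeR) and 2.85 ± 0.15 (adjusted p = 1.91e-21, edgeR). The 8 other plexins lay between -0.64 (PLXNA2) and 0.59 (PLXNB1) in Pdgfra+ cells and between -1.11 (PLXNA2) and 0.78 (PLXNB3, which shares 20.4% of its exon bases with SRPK3) in Pdgfralow cells. PLXNA2, a class A plexin, had 146 and 147 CPM in FGF8+10 Pdgfralow libraries, against 321 and 312 CPM in Mock Pdgfralow libraries. PLXNA2 had 117 and 119 CPM with FGF8+10 and 185 and 184 CPM with Mock in the Pdgfra+ gate. PLXNA3, which acts with neuropilins, fell with -0.32 ± 0.03 and -0.37 ± 0.04. PLXND1, the SEMA3E receptor, rose by 0.12 ± 0.03 and 0.49 ± 0.03. PLXND1 had 224 and 221 CPM in FGF8+10 Pdgfra+ libraries, against 208 and 203 CPM in Mock Pdgfra+ libraries, and 245 and 249 CPM in FGF8+10 Pdgfralow libraries, against 176 and 176 CPM in Mock Pdgfralow libraries. PLXNB2, the most abundant plexin per length, fell with -0.19 ± 0.03 and -0.61 ± 0.03, and its Pdgfra+ call was lost with library totals alone (adjusted p = 0.538, edgeR). PLXNB2 reached 215 and 208 CPM in FGF8+10 Pdgfra+ libraries, against 245 and 239 CPM in Mock Pdgfra+ libraries, and 218 and 214 CPM in FGF8+10 Pdgfralow libraries, against 329 and 332 CPM in Mock Pdgfralow libraries.

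SLIT2, SLIT3 and ROBO1 all fell in both populations. SLIT2 had 248 and 243 CPM in FGF8+10 Pdgfra+ libraries, against 552 and 545 CPM in Mock Pdgfra+ libraries. In Pdgfralow cells SLIT2 had 268 and 272 CPM with FGF8+10 and 581 and 575 CPM with Mock. The changes were -1.16 ± 0.02 (adjusted p = 1.8e-37, edgeR) and -1.10 ± 0.02 (adjusted p = 1.02e-36, edgeR), and the treatments did not overlap. SLIT3 had 217 and 211 CPM in FGF8+10 Pdgfra+ libraries, against 355 and 348 CPM in Mock Pdgfra+ libraries, and 174 and 177 CPM in FGF8+10 Pdgfralow libraries, against 404 and 395 CPM in Mock Pdgfralow libraries. SLIT3 fell with -0.72 ± 0.03 and -1.19 ± 0.03, while SLIT1 stayed between 0.723 and 1.53 CPM in all libraries and did not pass. ROBO1, the widely expressed slit receptor, had 107 and 103 CPM in FGF8+10 Pdgfra+ libraries, against 245 and 244 CPM in Mock Pdgfra+ libraries. It had 80.9 and 81.1 CPM in FGF8+10 Pdgfralow libraries, against 227 and 226 CPM in Mock Pdgfralow libraries. Its changes were -1.22 ± 0.03 and -1.48 ± 0.03, again without overlap. ROBO2 rose in Pdgfra+ cells (0.83 ± 0.08) and did not pass in Pdgfralow cells (-0.12 ± 0.08). ROBO3, which promotes midline crossing of axons, fell in Pdgfralow cells (-0.48 ± 0.09) and did not pass in Pdgfra+ cells (0.16 ± 0.08), where library totals alone gave 0.33 (adjusted p = 0.000647, edgeR). ROBO3 had 20.8 and 21.6 CPM in FGF8+10 Pdgfra+ libraries, against 19.5 and 18.4 CPM in Mock Pdgfra+ libraries, and 11.7 and 12.6 CPM in FGF8+10 Pdgfralow libraries, against 16.0 and 17.9 CPM in Mock Pdgfralow libraries.

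All 4 netrins fell in both populations. NTN1, the canonical netrin, had 0.118 and 0.0294 CPM in FGF8+10 Pdgfra+ libraries, against 1.12 and 0.934 CPM in Mock Pdgfra+ libraries, a change of -3.76 ± 0.48. In Pdgfralow cells it had 0.302 and 0.239 CPM with FGF8+10 and 3.35 and 2.48 CPM with Mock, a change of -3.43 ± 0.38. The FGF8+10 libraries thus held at most 0.302 CPM of NTN1, below each Mock library. NTN4, a netrin that binds laminin, had 0.148 and 0.353 CPM in FGF8+10 Pdgfra+ libraries, against 1.10 and 0.872 CPM in Mock Pdgfra+ libraries, with changes of -1.96 ± 0.48 and -3.40 ± 0.54. In turn NTN4 had 0.0377 and 0.188 CPM with FGF8+10 and 1.41 and 1.06 CPM with Mock in the Pdgfralow gate. NTN3, the most abundant netrin per length, had 5.80 and 5.42 CPM in FGF8+10 Pdgfra+ libraries, against 10.0 and 7.78 CPM in Mock Pdgfra+ libraries, with changes of -0.66 ± 0.14 and -1.67 ± 0.15. The NTN3 values were 2.45 and 3.04 CPM with FGF8+10 and 8.46 and 9.10 CPM with Mock in the Pdgfralow gate. Treatments did not overlap for NTN4 or NTN3 in either gate. NTN5 had 0.563 and 0.515 CPM in FGF8+10 Pdgfra+ libraries, against 1.21 and 0.975 CPM in Mock Pdgfra+ libraries, and 0.321 and 0.119 CPM in FGF8+10 Pdgfralow libraries, against 0.575 and 0.629 CPM in Mock Pdgfralow libraries. The NTN5 changes were -1.02 ± 0.43 and -1.46 ± 0.49. The NTN5 call in Pdgfra+ cells was lost under most alternatives, with DESeq2 among them (adjusted p = 0.0851), and that in Pdgfralow cells without FGF8+10 Pdgfralow replicate 2 (adjusted p = 0.189, edgeR).

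Of the UNC5 receptors, 2 rose and 2 fell. UNC5C had 498 and 497 CPM in FGF8+10 Pdgfra+ libraries, against 244 and 241 CPM in Mock Pdgfra+ libraries. In Pdgfralow cells it had 344 and 344 CPM with FGF8+10 and 151 and 150.3 CPM with Mock. Its gains were 1.04 ± 0.02 (adjusted p = 5.99e-35, edgeR) and 1.19 ± 0.02 (adjusted p = 4.79e-37, edgeR), without overlap. UNC5B, known for its part in vessel branching, had 446 and 437 CPM in FGF8+10 Pdgfra+ libraries, against 283 and 296 CPM in Mock Pdgfra+ libraries, and rose by 0.61 ± 0.02 and 0.78 ± 0.02. UNC5B had 383 and 381 CPM with FGF8+10 and 225 and 222 CPM with Mock in the Pdgfralow gate. UNC5D, which also binds FLRT proteins, had 0.755 and 0.456 CPM in FGF8+10 Pdgfra+ libraries, against 3.20 and 3.15 CPM in Mock Pdgfra+ libraries. In Pdgfralow cells UNC5D had 1.21 and 0.887 CPM with FGF8+10 and 22.4 and 24.3 CPM with Mock. Its changes were -2.39 ± 0.21 and -4.49 ± 0.17, and Mock Pdgfralow libraries were again the highest. These libraries had the high neural marker sum, 129 CPM of it from STMN2 alone. The part of neural cells in the UNC5D difference was not tested either. UNC5A fell with -1.34 ± 0.16 and -2.08 ± 0.18, at 1.36 and 1.81 CPM in FGF8+10 Pdgfralow libraries, against 7.38 and 6.05 CPM in Mock Pdgfralow libraries. With FGF8+10 the Pdgfra+ libraries had 4.13 and 3.03 CPM, and with Mock 9.45 and 8.72 CPM.

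**Figure D4:**
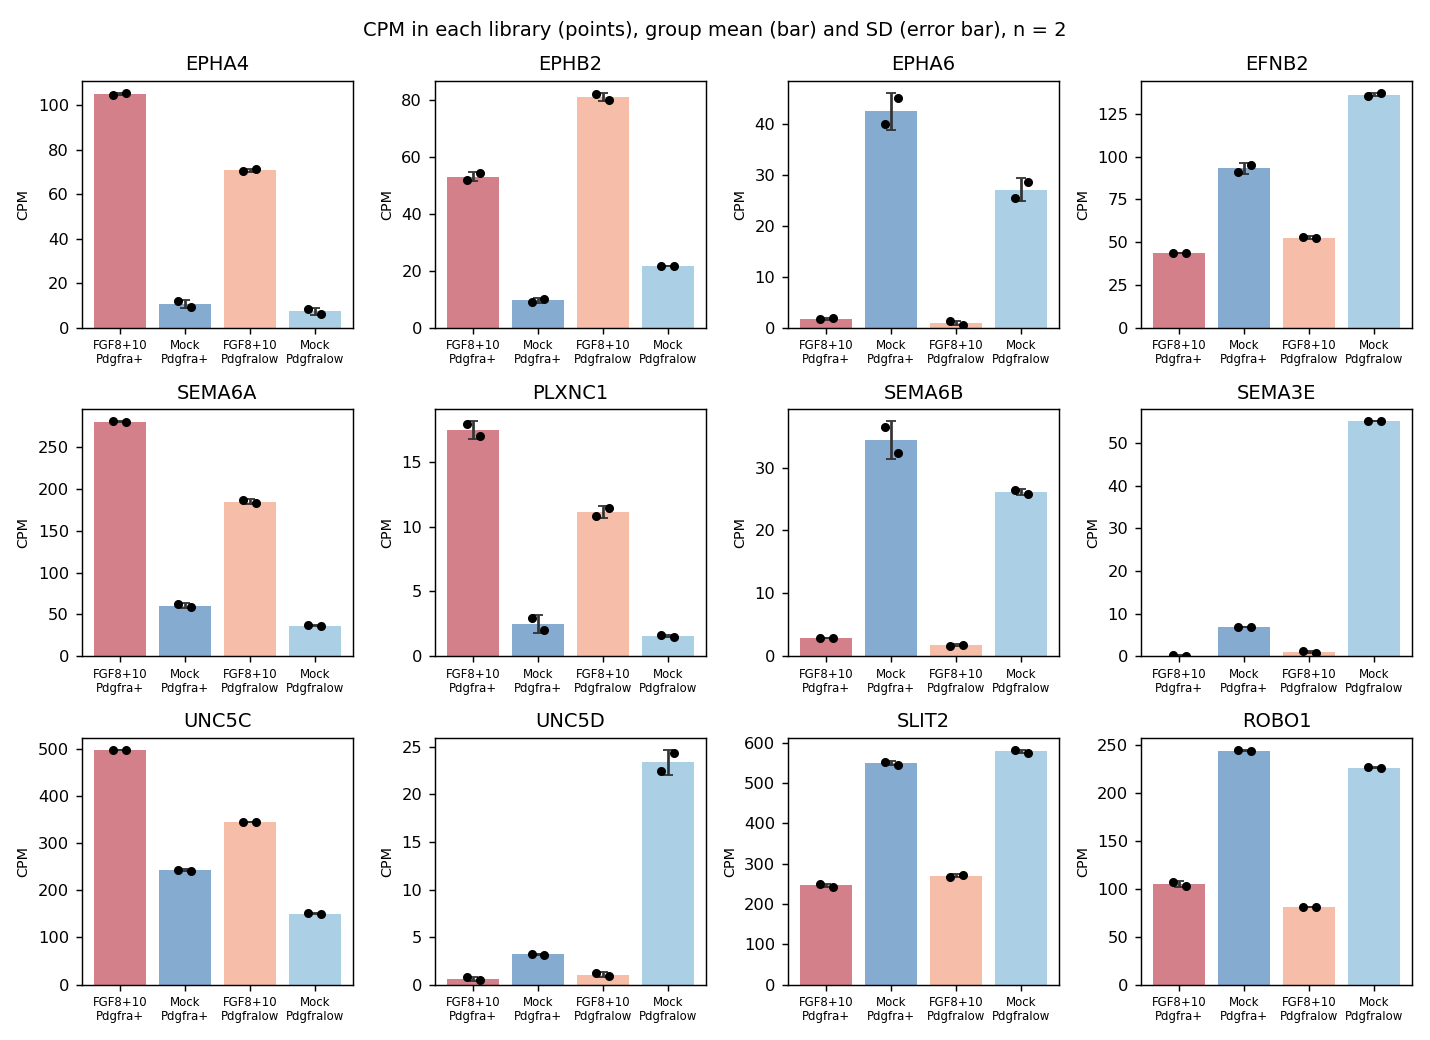
CPM of 12 guidance genes, with a point per library, bars for group means and error bars for the SD (n = 2). EPHA4, EPHB2, SEMA6A, PLXNC1 and UNC5C were higher and the other 7 genes lower in FGF8+10 than in Mock libraries of both populations, and SEMA3E and UNC5D were highest in Mock Pdgfralow libraries.

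Outside the 4 families, 8 co-receptors were examined beside them. Of these, 5 rose and 1 fell in Pdgfra+ cells, and 5 rose and 2 fell in Pdgfralow cells. NRP1, the neuropilin used by SEMA3A, had 1136 and 1124 CPM in FGF8+10 Pdgfra+ libraries, against 390.0 and 393 CPM in Mock Pdgfra+ libraries. In Pdgfralow cells NRP1 had 945 and 957 CPM with FGF8+10 and 234 and 245 CPM with Mock. It rose by 1.53 ± 0.02 and 1.99 ± 0.02, and NRP2, the neuropilin used by SEMA3F, by 0.53 ± 0.02 and 1.28 ± 0.02. L1CAM, which joins NRP1 in SEMA3A receptors, rose by 0.63 ± 0.09 and 1.18 ± 0.08, and KDR, a vascular growth factor receptor, by 0.48 ± 0.02 and 0.71 ± 0.02. ROBO4, a ROBO of endothelium, had 1.70 and 2.34 CPM in FGF8+10 Pdgfralow libraries and at most 0.237 CPM in any other.

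DCC, the attractive netrin receptor, had 4.43 and 3.36 CPM in FGF8+10 Pdgfralow libraries, against 10.7 and 11.9 CPM in Mock Pdgfralow libraries, a change of -1.54 ± 0.16. Its change in Pdgfra+ cells was -0.41 ± 0.17. The related NEO1 fell in Pdgfralow cells (-0.61 ± 0.04) and did not pass in Pdgfra+ cells (-0.07 ± 0.04), and the plexin partner MET passed in neither. All 10 endothelial markers rose in Pdgfralow cells, and their summed level was 2575 and 2581 CPM in FGF8+10 Pdgfralow libraries, against 1371 and 1363 CPM in Mock Pdgfralow libraries. In Pdgfra+ cells 5 rose and 2 fell. PECAM1 had 19.4 and 17.5 CPM in FGF8+10 Pdgfralow libraries, against 0.706 and 0.645 CPM in Mock Pdgfralow libraries. KDR, the largest share of the sum, is 1 of those 10, and the part of endothelial cells in the co-receptor changes was not tested.

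Of 9 tested ligands from other guidance families, such as repulsive guidance molecules and FLRT proteins, 3 rose and 4 fell in Pdgfra+ cells, and 3 rose and 5 fell in Pdgfralow cells. Their median log2 changes were -0.21 in Pdgfra+ cells and -0.53 in Pdgfralow cells.

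Pdgfra+ and Pdgfralow cells were then compared under each treatment, with fold changes of Pdgfra+ over Pdgfralow. Under FGF8+10, 29 guidance genes were higher in Pdgfra+ cells, 15 were lower and 19 did not pass, against 41.4% of all genes passing, 19.6% higher and 21.7% lower. Under Mock, 19 were higher, 17 lower and 27 did not pass, against 25.8% of all genes passing, 12.4% higher and 13.4% lower. The count of 19 fell to 12 without Mock Pdgfralow replicate 2. Median changes were 0.20 under FGF8+10 and 0.06 under Mock, where those of all genes were 0.01 and 0.02. At 2-fold or more, 6 guidance genes were higher and 5 lower in Pdgfra+ cells under FGF8+10, where 6.38% of all genes were called, 3.13% higher and 3.26% lower. Under Mock none was higher and 6 were lower, where 3.88% of all genes were called, 1.63% higher and 2.25% lower.

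Both SEMA3E and NTN1 were at least 2-fold lower in Pdgfra+ cells under each treatment. SEMA3E differed by -2.96 ± 0.36 under FGF8+10 (adjusted p = 3.37e-09, edgeR) and -3.02 ± 0.11 under Mock (adjusted p = 3.68e-26, edgeR). NTN1 differed by -1.84 ± 0.57 under FGF8+10 and -1.51 ± 0.33 under Mock. The NTN1 call under FGF8+10 was lost with only the groups compared (adjusted p = 0.0650, edgeR). This call was also lost without FGF8+10 Pdgfra+ replicate 2, at a value of -1.17, and without FGF8+10 Pdgfralow replicate 1, at -1.66. The 12 neural markers, whose part in these differences was not tested, summed to 5.48 and 7.68 CPM in FGF8+10 Pdgfra+ libraries, against 21.8 and 20.7 CPM in FGF8+10 Pdgfralow libraries. GAP43 gave 10.6 CPM of the Pdgfralow sum.

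Under FGF8+10, PLXNA4, a receptor of class 6 semaphorins and partner of NRP1, had 349 and 332 CPM in Pdgfra+ libraries, against 135 and 134 CPM in Pdgfralow libraries, a difference of 1.34 ± 0.03 (adjusted p = 6.47e-36, edgeR). All 3 ROBO genes were higher in Pdgfra+ cells, with ROBO2 at 28.5 and 28.8 CPM in Pdgfra+ libraries, against 14.1 and 15.6 CPM in Pdgfralow libraries. Also higher were SEMA3G (1.70 ± 0.29), UNC5A (1.17 ± 0.19), NTN3 (1.03 ± 0.15) and NTN5 (1.30 ± 0.50). The NTN5 call was lost with DESeq2 (adjusted p = 0.0506) and with only the groups compared (adjusted p = 0.0551, edgeR). This call was also lost without FGF8+10 Pdgfralow replicate 2, at a value of 0.75. The same held without FGF8+10 Pdgfra+ replicate 1 (1.24) or FGF8+10 Pdgfra+ replicate 2 (1.37). Lower in Pdgfra+ cells were SEMA3C (-1.56 ± 0.08), SEMA3D (-1.78 ± 0.30) and EPHA2 (-1.13 ± 0.07). EPHA10, 1 of the 29, was called higher from 6 counts against 0, both within the limit of a count of 0, and its call was lost without FGF8+10 Pdgfra+ replicate 2.

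Under Mock, UNC5D had 3.20 and 3.15 CPM in Pdgfra+ libraries, against 22.4 and 24.3 CPM in Pdgfralow libraries, a difference of -2.88 ± 0.14 (adjusted p = 4.02e-21, edgeR). SEMA5B (-1.32 ± 0.18), EPHB2 (-1.17 ± 0.07) and SEMA3A (-1.07 ± 0.06) were also at least 2-fold lower in Pdgfra+ cells. No guidance gene was called 2-fold or more higher in Pdgfra+ cells under Mock. Smaller differences of the same direction under both treatments included UNC5C (0.53 ± 0.02 under FGF8+10 and 0.68 ± 0.02 under Mock), EPHA7 (0.25 ± 0.02 and 0.42 ± 0.02) and SEMA6A (0.60 ± 0.03 and 0.72 ± 0.04), in the same order of treatments, which were higher in Pdgfra+ cells. PLXNA2 (-0.31 ± 0.03 and -0.78 ± 0.03) and EFNB2 (-0.27 ± 0.04 and -0.55 ± 0.04) were lower in Pdgfra+ cells under both.

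**Figure D5:**
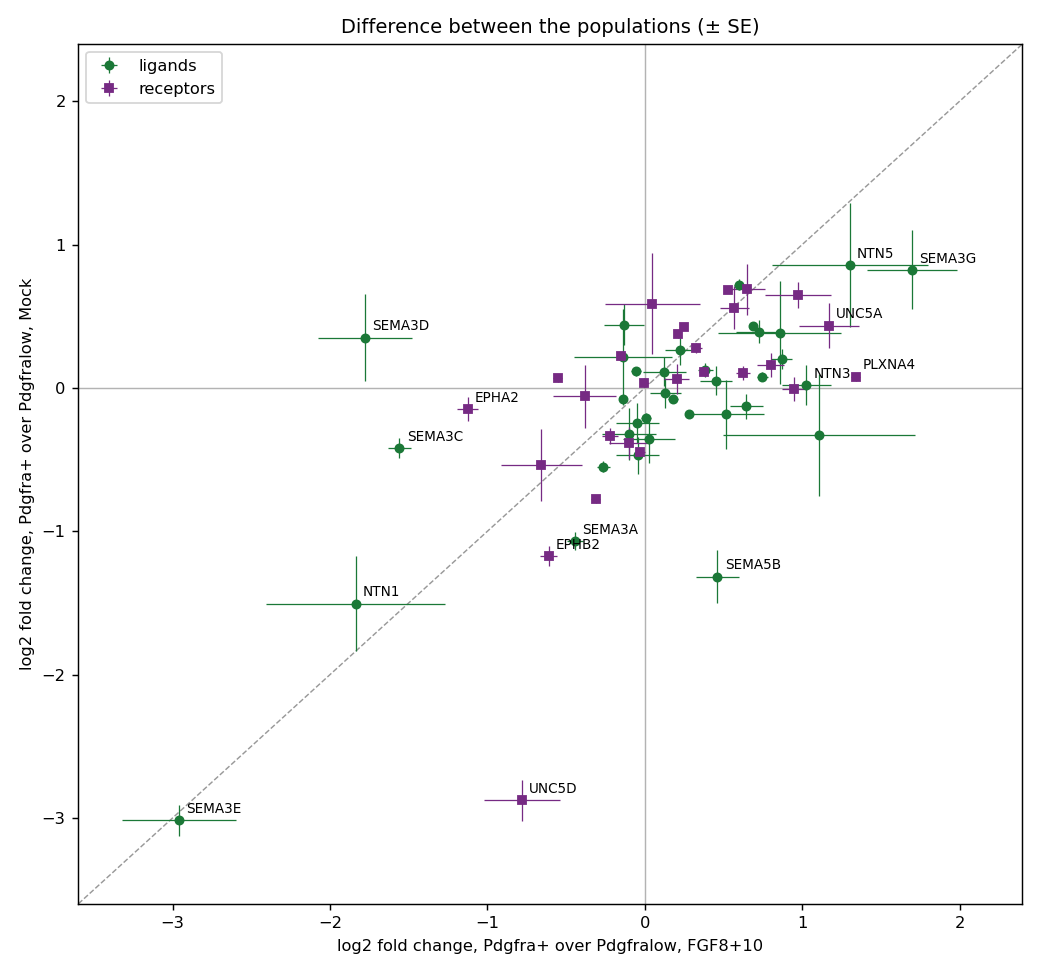
Log2 fold change of Pdgfra+ over Pdgfralow cells under FGF8+10 (x axis) and under Mock (y axis) for the 62 guidance genes that lie within the axes, with SE bars. SEMA3E and NTN1 lie below -1 on both axes, UNC5D, SEMA5B, EPHB2 and SEMA3A below -1 on the Mock axis alone, and PLXNA4 at 1.34 under FGF8+10, while EPHA10, with 6 counts against none under FGF8+10, lies beyond the x axis.

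Whether FGF8+10 acted on a gene to the same extent in both gates was tested as the difference between its 2 effects, Pdgfra+ minus Pdgfralow. This difference passed for 33 guidance genes, 23 above 0 and 10 below, against 26% of all genes, 12% above and 14% below. Its median was 0.26 over the guidance genes tested and -0.01 over all genes. It reached 1 on the log2 scale for 6 genes, against 4.44% of all genes, namely NTN3, PLXNA4, SEMA3C, SEMA3D, SEMA5B and UNC5D. SEMA3D, a class 3 semaphorin, had 0.666 and 0.765 CPM in FGF8+10 Pdgfra+ libraries, against 1.30 and 1.45 CPM in Mock Pdgfra+ libraries. In Pdgfralow cells it had 2.17 and 2.75 CPM with FGF8+10 and 1.35 and 0.810 CPM with Mock. FGF8+10 libraries were thus lower than Mock in one gate and higher in the other, with a difference of -2.13 ± 0.42 (adjusted p = 9.46e-05, edgeR). The SEMA3D fall in Pdgfra+ cells, -0.94 ± 0.31, was lost without FGF8+10 Pdgfra+ replicate 1 (adjusted p = 0.0760, edgeR) or Mock Pdgfra+ replicate 2 (adjusted p = 0.0661, edgeR).

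PLXNA4 rose with FGF8+10 in Pdgfra+ cells and fell in Pdgfralow cells. Mock libraries of the 2 gates were close, at 279.5 and 276 CPM in Pdgfra+ and 268 and 258 CPM in Pdgfralow libraries. The 2 effects, 0.30 ± 0.03 and -0.97 ± 0.03, differed by 1.26 ± 0.04 (adjusted p = 7.89e-29, edgeR). PLXNA1, of the same class, had the opposite pair of directions, -0.16 ± 0.03 and 0.46 ± 0.03, and a difference of -0.62 ± 0.04, although its Pdgfra+ value was 0.01 with library totals alone. SEMA5B rose more in Pdgfra+ than in Pdgfralow cells (difference 1.78 ± 0.23), and UNC5D fell less (difference 2.10 ± 0.29). NTN3 fell less in Pdgfra+ cells (difference 1.01 ± 0.21), whereas SEMA3C fell more (difference -1.14 ± 0.10). EPHA2 rose less in Pdgfra+ cells, with a difference of -0.98 ± 0.11 (adjusted p = 5.45e-10, edgeR).

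Several genes with treatment changes of over 2-fold in both gates gave a difference that did not pass. These included EPHA4 (0.01), PLXNC1 (-0.04), EFNA5 (0.01), SEMA6A (-0.12) and SLIT2 (-0.06), which does not show that the effects were equal. Class B ephrins each had a difference above 0, at 0.22 ± 0.04 for EFNB1, 0.28 ± 0.06 for EFNB2 and 0.67 ± 0.05 for EFNB3, and EFNB2 and EFNB3 thus fell less in Pdgfra+ than in Pdgfralow cells. The 3 ROBO genes also had differences above 0, from 0.27 for ROBO1 to 0.96 for ROBO2.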

How the data were processed

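RNA-seq libraries of 4 sorted groups (2 each) were read from 1 table of raw counts that the authors deposited. Per the file headers, featureCounts 2.0.3 counted reads over exons by gene name with GENCODE release 42, without strand, leaving out reads that fall on several genes or places. Both mates of a pair were counted, so a pair adds up to 2 counts. FastQC 0.11.8, HISAT2 2.1.0 and GRCh38 come from the submitters' processing notes. Without strand, reads of a gene and its antisense partner cannot be told apart.

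From these counts, genes were filtered with filterByExpr, scaled by TMM and fitted as 4 group means over 8 libraries (edgeR 4.0.16, limma 3.58.1, R 4.3.3; robust quasi-likelihood test, Benjamini-Hochberg over 22554 genes). The SE is the log2 change divided by the root of its F statistic. CPM were computed here with TMM scaling, and TPM from the deposited counts and lengths without it. With 4 residual degrees of freedom, the median gene's biological coefficient of variation was 8.58%. The fit was tested on simulated data. DESeq2 1.42.0, other scalings, no filter, halved counts, a replicate block, fewer groups and each library left out served as alternatives.

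The guidance genes, lists, rules and alternatives were chosen with earlier results of these data known. Values per library were given for genes at 2-fold or more in both treatment comparisons, in both population comparisons, or in the difference of effects, and for the 2 genes of each family highest by TPM in any group. Other members were given by call and range. Promoter windows are from RefSeq (GRCh38.p14). Replicate numbers were not used to pair the libraries in the main fit.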

Additional observations from a re-analysis of the deposited data

Results flagged for a closer look

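Of the tested guidance genes, 6 had an FGF8+10 effect that differed between the gates by at least 1 on the log2 scale and past the threshold, by the test of the difference itself (Pdgfra+ minus Pdgfralow, edgeR, Benjamini-Hochberg). NTN3 differed by 1.01 ± 0.21 (adjusted p = 0.000145, edgeR), since it fell less in Pdgfra+ cells. PLXNA4 differed by 1.26 ± 0.04 (adjusted p = 7.89e-29, edgeR), with opposite directions in the gates. SEMA3C differed by -1.14 ± 0.10 (adjusted p = 6.35e-10, edgeR), since it fell more in Pdgfra+ cells. SEMA3D differed by -2.13 ± 0.42 (adjusted p = 9.46e-05, edgeR), with opposite directions in the gates. SEMA5B differed by 1.78 ± 0.23 (adjusted p = 2.31e-08, edgeR), since it rose more in Pdgfra+ cells. UNC5D differed by 2.10 ± 0.29 (adjusted p = 1.27e-07, edgeR), since it fell less in Pdgfra+ cells. For UNC5D, the neural marker sum of 135.8 and 135.6 CPM in Mock Pdgfralow libraries stands beside the result. Of this sum, 129 CPM came from STMN2, and the part of neural cells in the difference was not tested.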

How the results depend on the processing

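Counts of guidance genes higher and lower stayed within 1.5 times the reported ones under all alternatives but 1. Leaving out each library in turn gave 12 to 19 genes higher in Pdgfra+ than in Pdgfralow cells under Mock, the lowest without Mock Pdgfralow replicate 2, where 19 were reported. The same gave 19 to 21 higher and 27 to 29 lower for FGF8+10 against Mock in Pdgfra+ cells, and 20 to 21 higher and 32 to 36 lower in Pdgfralow cells. With library totals alone, 4 genes changed sign for FGF8+10 against Mock in Pdgfra+ cells: EFNB1 at 0.14, PLXNA1 at 0.0136, SEMA4B at 0.11 and SEMA4C at 0.0177. This scaling raises the median gene by 0.171 there. The fitted EPHA10 value between the populations under FGF8+10 ranged from 0 to 5.35 with 1 library left out, and was 0 without FGF8+10 Pdgfra+ replicate 2, which holds all of its counts in those groups. With the replicate block, FGF8+10 against Mock gave 21 higher and 29 lower in Pdgfra+ cells and 20 higher and 34 lower in Pdgfralow cells. Deviations of same-numbered libraries correlated between -0.009 and 0.036 over 9857 genes, so they had little in common. This cannot settle whether the numbers pair the libraries, which the labels do not say. DESeq2 gave 20 higher and 28 lower, and 20 higher and 33 lower, in the same comparisons. The fit of only the groups compared has no value for the difference of effects. Calls of UNC5D (adjusted p = 0.0768, edgeR) and NTN1 (adjusted p = 0.0650, edgeR) between the populations under FGF8+10 were lost with only the groups compared. Both calls were also lost without FGF8+10 Pdgfra+ replicate 2, at values of -0.46 and -1.17. They were lost again without FGF8+10 Pdgfralow replicate 1, at -0.55 and -1.66. The causes of these shifts were not tested. With 2 libraries a group, genes under about 1 CPM, such as NTN5, carry wide errors.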
